A study of Homo sapiens with 17 samples.

Results

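The first day of all-trans retinoic acid (ATRA) in cultured CHP-134 cells is described here from 4 of the 17 libraries of the series: 2 of cells given 2 µM ATRA for 1 day, and 2 of cells given its solvent DMSO, which the labels date to day 0. CHP-134 is an established human neuroblastoma cell line, so each group is 1 line and not a set of patients. All 20237 genes with enough counts were tested, and the response is followed through 4 themes other than the retinoid targets: signaling, transcription factors, extracellular matrix and lipids. The study asked how retinoic acid changes gene expression in a neuroblastoma line that is very sensitive to it. Its other culture libraries, 2 at 3 days and 2 at 6 days of 2 µM ATRA, share the DMSO libraries with the 1-day comparison. Its tumor libraries share none: they are 4 tumors from mice given 13-cis-retinoic acid by mouth (25 mg/kg, 2 times daily, called RA tumors) and 5 control tumors. The labels call the controls untreated, and the study describes them as vehicle-treated. All were grown by CHP-134 cells under the skin of female athymic nude mice, hosts that still have their own stroma and innate immune cells.

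Retinoic acid enters the nucleus and binds receptors that sit on DNA as pairs of a retinoic acid receptor and a retinoid X receptor, which turns nearby genes on. The proteins of those first genes, among them other transcription factors, enzymes and secreted factors, then change further genes, so that a sample taken after 1 day holds both. In neuroblastoma, a tumor of the developing sympathetic nervous system, retinoic acid is given to drive cells out of division and towards a neuronal fate.

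Libraries of cells held 31607051 to 39422897 counts, and transcripts of the mitochondrial genome took 2.42% to 2.47% of counts in the ATRA 1-day libraries and 2.11% to 2.18% in the DMSO libraries. Of 14 marker genes of sympathetic neuroblastoma, 12 had a mean over 1 CPM (counts scaled to a common library total) in at least 1 of the 2 groups. The 14 genes, with MYCN the highest among them with DMSO, summed to 4031 and 3934 CPM at 1 day and 3720 and 3760 CPM with DMSO. The 8 leukocyte markers summed to 0.908 and 0.878 CPM at 1 day and 0.667 and 0.850 CPM with DMSO, with AIF1, CD3E and MS4A1 at 0, and the Schwann cell markers S100B and SOX10 were at 0 in the 4 libraries. The 9 fibroblast and mesenchymal markers summed to 105.2 and 104.7 CPM at 1 day and 124.1 and 127.5 CPM with DMSO. Of 7 endothelial markers, EMCN and TEK were at 0 and CLDN5, a tight junction gene, was the one tested, with 8.03 and 7.42 CPM at 1 day and 1.31 and 1.73 CPM with DMSO (log2 fold change 2.36 ± 0.14 SE).

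A gene was called changed where edgeR's quasi-likelihood test gave a false discovery rate (FDR, Benjamini-Hochberg over all genes tested) under 0.05 and the difference was more than 2-fold. At 1 day 394 genes were higher with ATRA, which is 1.95% of the genes tested, and 160 were lower, which is 0.791%. DESeq2's Wald test called fewer, 228 higher and 80 lower, and gave no adjusted p to 128 of the 394 and 70 of the 160. By FDR alone, with no limit on fold, 2653 genes were higher (13.1%) and 2686 lower (13.3%), together 26.4%. Over all genes tested the median log2 fold change was 0.0026. Replicates differed little from each other (biological coefficient of variation 2.65%), and the study calls the culture replicates independent without saying whether they were separate cultures, so the p-values measure only the spread between these libraries, which may be technical. With no DMSO library matched to 1 day in the labels, time in culture and ATRA cannot be told apart. Of 20 proliferation genes none was called, 3 were higher and 10 lower by FDR alone, and their median log2 fold change was −0.06.

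**Figure D1:**
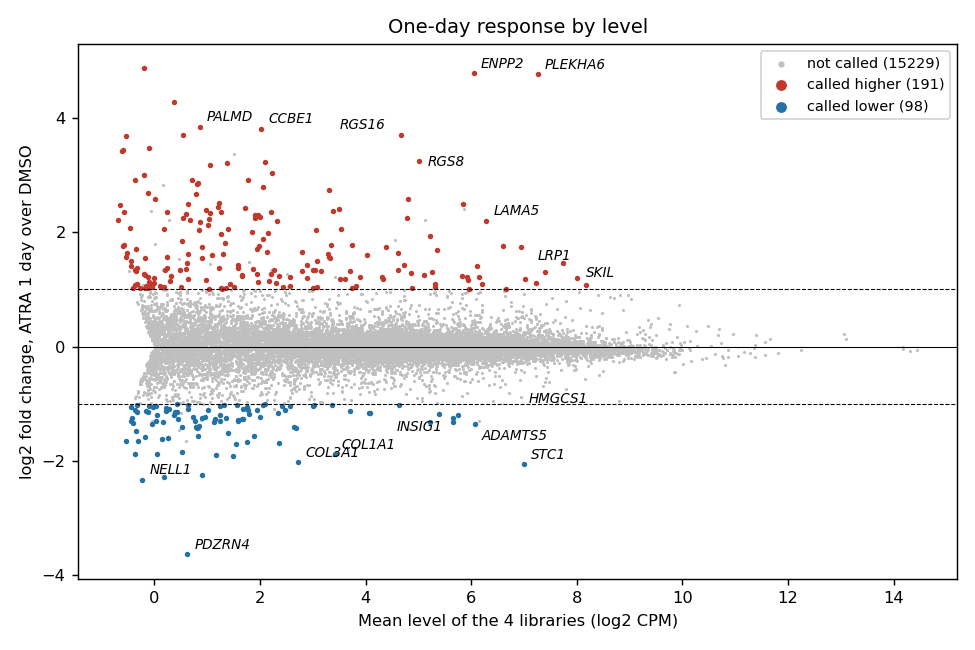
Log2 fold change of ATRA 1 day over DMSO (vertical axis) against the mean level of the 4 libraries (horizontal axis, log2 CPM) for the 15518 genes with more than 3 counts in each group and at least 1 CPM in the higher group; dashed lines mark 2-fold. Called genes are colored (191 higher, 98 lower), and the higher ones reach further from 0 than the lower ones.

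The plot of fold change against level shows where the calls lie: among genes drawn with a mean over 10 CPM, ENPP2 and PLEKHA6 had the largest rises and STC1 the largest fall. The header of the count table names every culture library "Ctrl", those of ATRA-treated cells included, and the groups here follow the labels. The receptor gene RARB (ENSG00000077092.19, hg38 chromosome 3, 24687887 to 25597932, plus strand), which retinoic acid receptors themselves switch on, served as a check of the treatment. RARB had 7.47 and 7.98 CPM at 1 day, against 0.923 and 0.704 CPM with DMSO (log2 fold change 3.23 ± 0.14 SE, FDR 2.14e-20). STRA6, the cell-surface importer of retinol bound to its carrier, had 54.2 and 54.1 CPM, against 24.9 and 26.1 CPM with DMSO (1.09 ± 0.04). The 12 tested genes of a retinoic acid target list were all higher by FDR, and 8 of them were called.

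The promoter of RARB is shown because it carries the classical response element through which the receptor pair acts, a repeat of a short motif with 5 bases between its copies, named DR5. In the RefSeq window of 250 bases before to 50 bases after a start site (GRCh38.p14), the element lies on the plus strand within chr3:25428204-25428233, positions −59 to −30, and is in capitals.
RARB: gggtagGGTTCACCGAAAGTTCActcgcat
A DR5 element on either strand was found in 29 of the 27305 genes with such a window (0.106%). A match is a description of letters, not of a bound site.

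PLEKHA6, PALMD and RAB20 were among the 15 protein-coding genes with the largest rises at 1 day. PLEKHA6 (ENSG00000143850.15, chromosome 1, 204218853 to 204377665, minus strand) encodes a pleckstrin homology domain protein of cell junctions. It had 294 and 296 CPM at 1 day, against 10.6 and 11.1 CPM with DMSO, a 27.3-fold rise (4.77 ± 0.03, FDR 5.50e-46). PALMD, which encodes the paralemmin-like protein palmdelphin, had 3.63 and 3.17 CPM at 1 day, against 0.308 and 0.147 CPM with DMSO (3.85 ± 0.22, and 4.498 without DMSO replicate 1). RAB20, a small GTPase of endosomes, had 2.64 and 2.77 CPM at 1 day and 0.257 and 0.147 CPM with DMSO (3.70 ± 0.25). Both ATRA libraries lay above both DMSO libraries in each of these genes. They were named for their rises in the same libraries, so the separation adds no support.

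Several genes were switched up from counts near 0, where the size of the rise is poorly known. TMC3, a transmembrane channel-like gene, had 1.66 and 1.76 CPM at 1 day, against 0.103 CPM and 0 with DMSO, and lies opposite TMC3-AS1 (3.78 CPM). PRG2, known for the major basic protein of eosinophils, held 202 counts in the 2 libraries of ATRA 1 day and 1 count with DMSO, a ratio of 197 with a 95% counting interval of 34.9 to 7809. RFPL1, a RING-finger and B30.2 domain gene, held 195 counts and 1 count, and it lies opposite RFPL1S (13.5 CPM), so reads of the pair could not be told apart without the strand setting used in counting, which the sources used here do not give. The read-through gene TMEM189-UBE2V1, which shares sequence with UBE2V1 (224 CPM), held 112 counts at 1 day and none with DMSO, at least 36.4-fold higher against a floor of 3 counts over the group. The intervals and the floor cover counting error only. TMC3 held 4 counts in the DMSO pair, and the other genes of this group held at most 1 there.

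**Figure D2:**
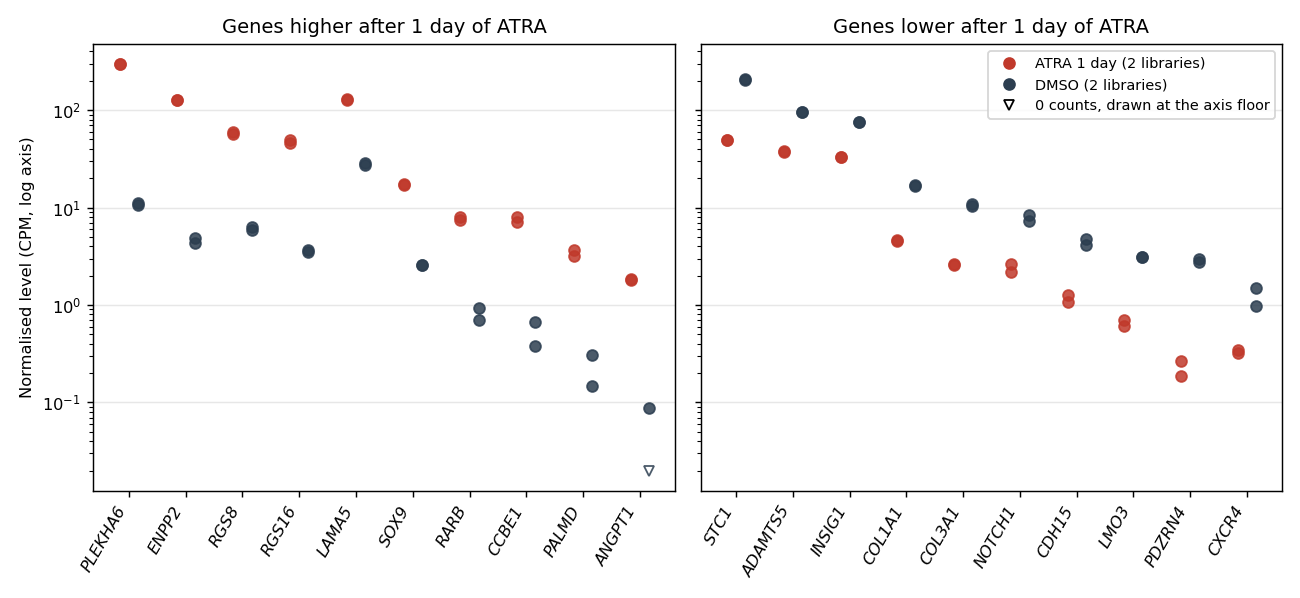
Level (CPM, log axis) of 20 genes in each library, ATRA 1 day in red and DMSO in dark blue, 2 points per group; open triangles at the bottom are libraries with 0 counts. In every gene drawn the 2 ATRA libraries lie on one side of the 2 DMSO libraries, from PLEKHA6 (294 and 296 CPM, against 10.6 and 11.1 CPM) to CXCR4 (0.320 and 0.346 CPM, against 1.49 and 0.968 CPM). The genes drawn were picked from those called, so the separation adds no support.

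The genes that fell most included a secreted hormone, collagens and adhesion genes, as the plot of levels by library shows beside the rises. PDZRN4, which encodes a protein with PDZ and RING domains, had 0.187 and 0.266 CPM at 1 day, against 2.98 and 2.76 CPM with DMSO, 12.5-fold lower (−3.64 ± 0.31, FDR 7.19e-12). NELL1, a secreted glycoprotein of bone formation, had 0.294 and 0.266 CPM at 1 day and 1.13 and 1.73 CPM with DMSO (−2.33 ± 0.42). LMO3, a LIM-only cofactor known as a neuroblastoma oncogene, had 0.694 and 0.612 CPM, against 3.08 and 3.14 CPM with DMSO (−2.24 ± 0.25). The alpha-2A adrenergic receptor gene ADRA2A and the synapse organizer gene CBLN4 also fell, with log2 fold changes of −1.85 ± 0.29 and −1.68 ± 0.20. Groups did not overlap in any of these 5 genes, which were named for their falls.

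**Figure D3:**
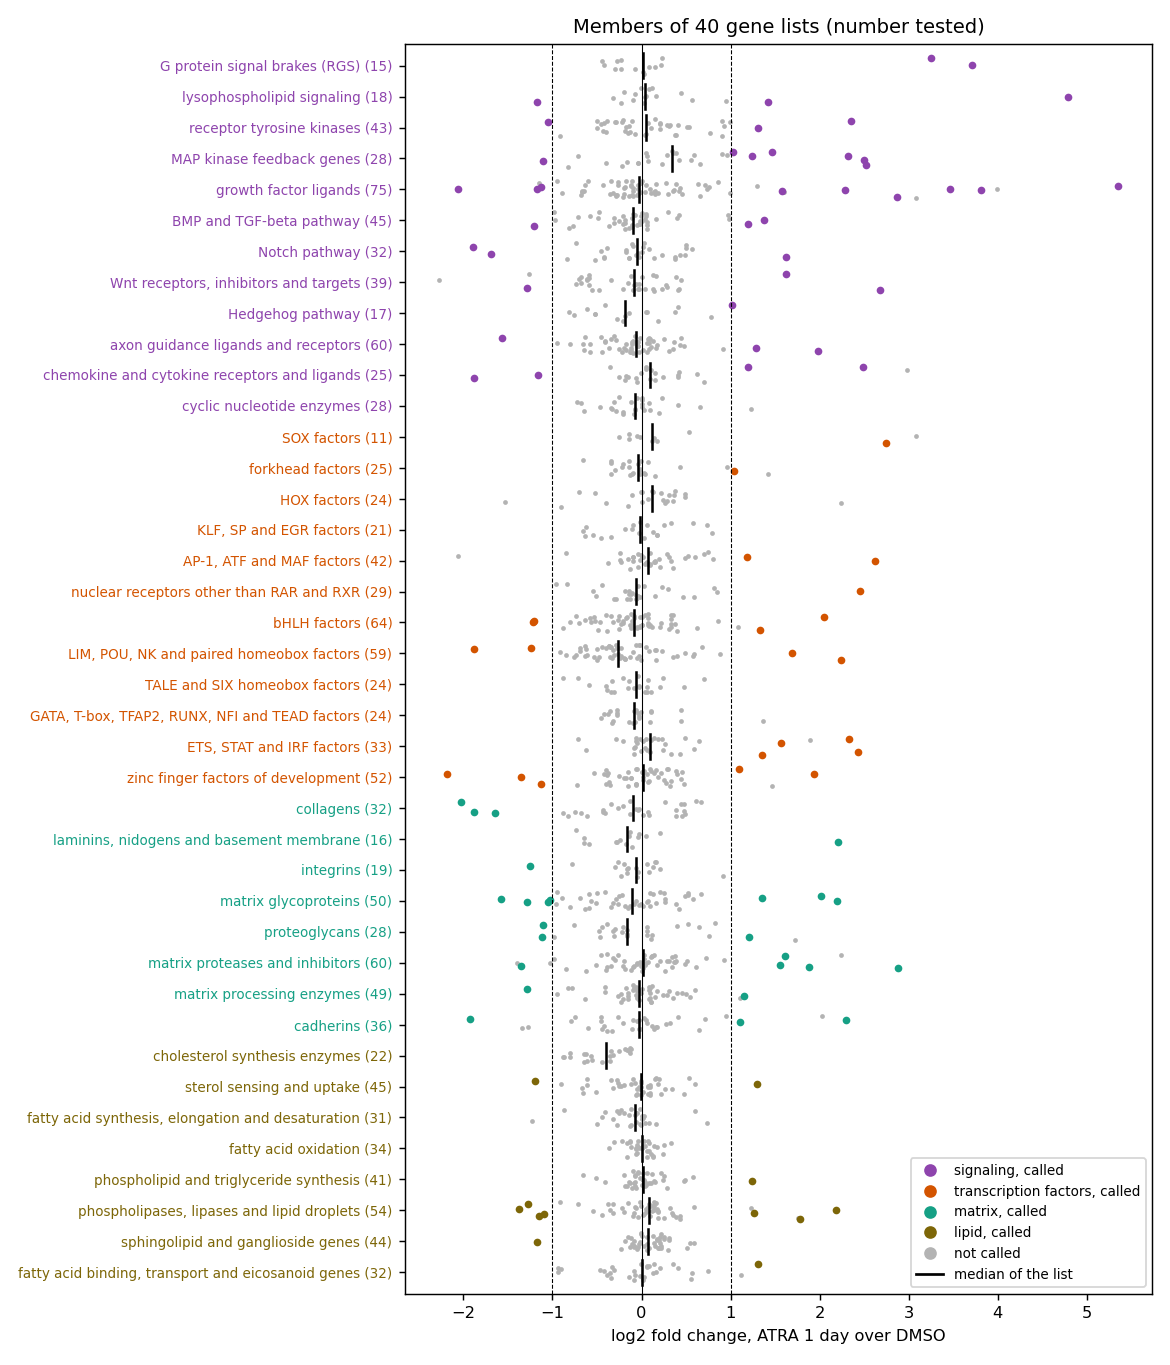
Log2 fold change of ATRA 1 day over DMSO (horizontal axis) for each tested member of 40 of the 41 gene lists of the 4 themes, with called members in the color of their theme, uncalled members in grey and the list's median as a black bar; the number tested stands behind each name. The medians farthest from 0 are those of the cholesterol synthesis enzymes (−0.40), the MAP kinase feedback genes (0.35) and the LIM, POU, NK and paired homeobox factors (−0.27), and the called members are spread over many lists.

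The 41 lists held 1482 tested genes, of which 62 were called higher and 40 lower (6.88%, beside 2.74% of all genes tested), with a median log2 fold change of −0.03. No comparison with genes of matched level was made. Counts of single lists below are to be read beside the 2.74% of all genes that were called. By FDR alone, 13.1% of all genes were higher and 13.3% lower. The strip plot of the lists shows that most of them held a few called members around a median close to 0.

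Signaling was the theme with the most calls: of 487 tested genes, 29 were higher and 14 lower (8.83%, beside 2.74% of all genes, median −0.03). Regulators of G protein signaling (RGS proteins), which speed the shut-off of G proteins, gave 2 of the largest rises. RGS16 had 48.95 and 45.9 CPM at 1 day, against 3.54 and 3.69 CPM with DMSO (3.71 ± 0.06, FDR 6.94e-34). RGS8 had 57.4 and 59.2 CPM at 1 day and 5.90 and 6.39 CPM with DMSO (3.25 ± 0.05). The other 13 tested RGS genes were not called, and the list's median was 0.02.

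Lysophospholipids are signaling lipids read by G protein-coupled receptors. ENPP2 (ENSG00000136960.12, chromosome 8, 119557086 to 119673453, minus strand) encodes autotaxin, the secreted enzyme that makes lysophosphatidic acid. It had 127 and 128 CPM at 1 day, against 4.36 and 4.87 CPM with DMSO (4.79 ± 0.04, FDR 2.12e-42). PLPPR1, a phosphatase-related membrane protein of growing neurites, rose as well, with 39.2 and 37.9 CPM at 1 day and 14.98 and 13.8 CPM with DMSO (1.42 ± 0.05). SGPP2, a phosphatase of sphingosine-1-phosphate, fell to 9.77 and 10.96 CPM, against 23.1 and 23.6 CPM with DMSO (−1.17 ± 0.08). The list of 18 tested genes held these 3 calls, and the ligand-making enzyme moved most.

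Receptor tyrosine kinases carry growth factor signals into the MAP kinase cascade, and 3 of 43 tested were called (6.98%, beside 2.74% of all genes). RET, the signaling receptor of the GDNF family, had 3.79 and 4.23 CPM at 1 day and 0.769 and 0.792 CPM with DMSO (2.36 ± 0.16). MET, the receptor of hepatocyte growth factor, had 0.961 and 0.878 CPM at 1 day and 0.333 and 0.410 CPM with DMSO (1.305 ± 0.35, FDR 0.00467). The MET call was lost with DESeq2 (1.301) and without DMSO replicate 1 (1.15). The fibroblast growth factor receptor gene FGFR2 fell to 2.62 and 1.76 CPM, against 4.72 and 4.34 CPM with DMSO (−1.05 ± 0.18), a call lost without DMSO replicate 1 (−0.99) and without ATRA 1-day replicate 2 (−0.80).

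Feedback genes of the MAP kinase cascade are mostly switched on by active ERK and then dampen it. Of 28 tested, 6 were called higher and 1 lower (25%, beside 2.74% of all genes), with a median log2 fold change of 0.35. By FDR alone 16 were higher and 5 lower, beside 13.1% and 13.3% of all genes. SPRY4, a Sprouty inhibitor of receptor signals, had 2.94 and 2.34 CPM at 1 day and 0.462 and 0.469 CPM with DMSO (2.50 ± 0.27). DUSP6, the phosphatase that removes the activating phosphates of ERK, had 2.59 and 2.47 CPM at 1 day, against 0.590 and 0.410 CPM with DMSO (2.32 ± 0.25). DUSP9, a related ERK phosphatase, had 3.95 and 4.07 CPM at 1 day, against 0.744 and 0.645 CPM with DMSO (2.52 ± 0.20). In these 3 genes both ATRA 1-day libraries were above both DMSO libraries. They were named for their calls in the same libraries, so the separation adds no support. 

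DUSP5 (1.25 ± 0.29), the cytokine signal inhibitor gene SOCS3 (1.46 ± 0.25) and DUSP16 (1.03 ± 0.05), a phosphatase of JNK and p38, completed the calls higher. The DUSP16 call was lost without DMSO replicate 1 (0.99), since its rise lay at the 2-fold limit. LRIG3, a membrane protein that modulates receptor tyrosine kinases, was the member called lower (−1.11 ± 0.18, and −0.99 with the call lost without ATRA 1-day replicate 1). Close relatives stayed under the limit, with 0.91 for DUSP4, 0.55 for SPRY2 and 0.38 for SPRED1, while SPRY1 was at −0.83.

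The ETS factors ETV1, ETV4 and ETV5 are known effectors of fibroblast growth factor and RET signals and are often on where ERK is active. ETV5 had 5.02 and 6.09 CPM at 1 day, against 0.898 and 1.17 CPM with DMSO (2.43 ± 0.17). ETV4 had 3.496 and 3.46 CPM at 1 day, against 0.487 and 0.909 CPM with DMSO (2.33 ± 0.24), and it lies opposite DHX8 (173 CPM), so its size is uncertain. ETV1 had 15.4 and 14.2 CPM at 1 day, against 5.00 and 5.01 CPM with DMSO (1.57 ± 0.07). FOSL1, an AP-1 subunit that responds to ERK, had 0.320 and 0.559 CPM at 1 day and 0.103 and 0.0293 CPM with DMSO (2.63 ± 0.71, FDR 0.00453). Its call was lost without DMSO replicate 2 (2.06) and without ATRA 1-day replicate 2 (2.17).

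**Figure D4:**
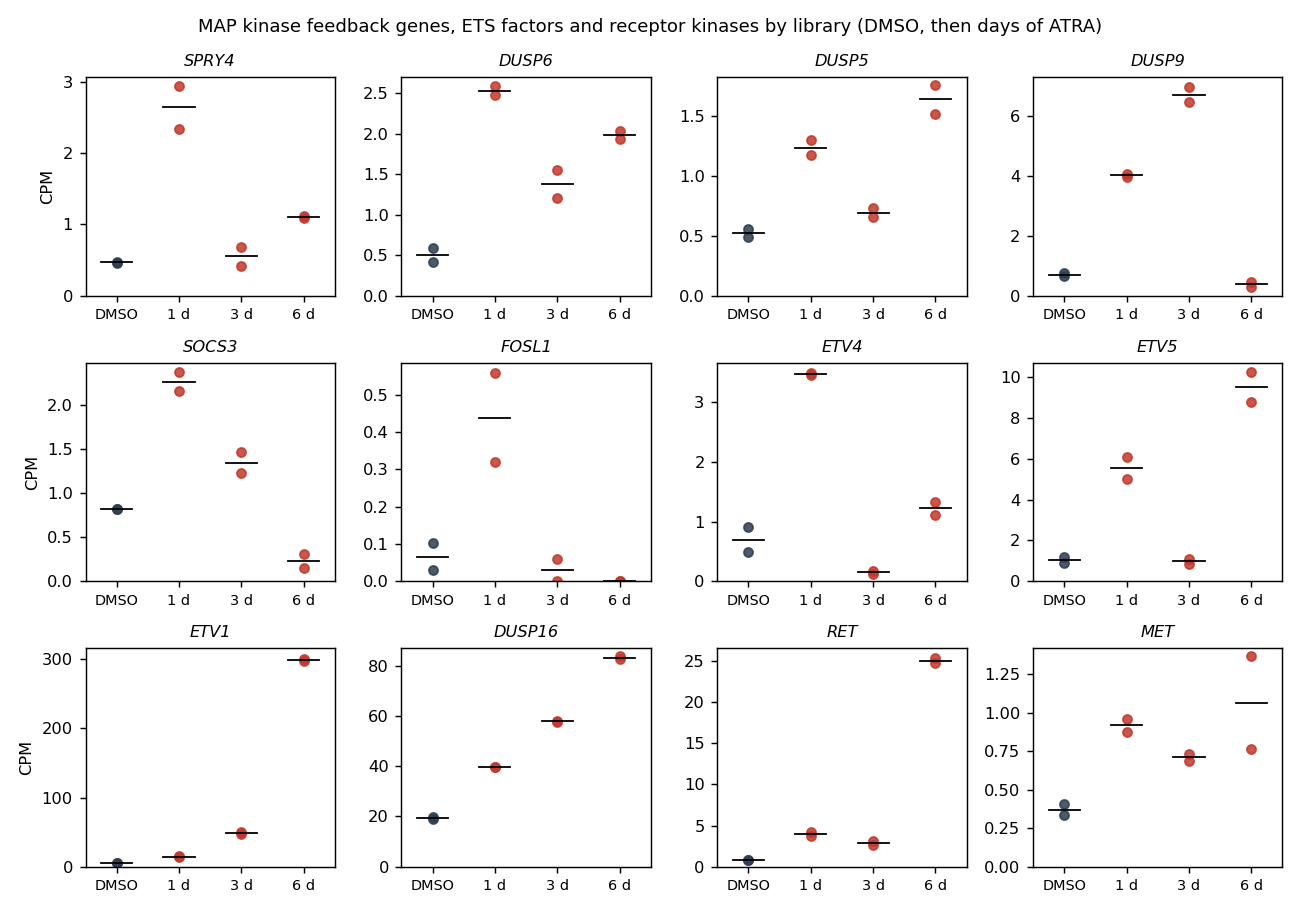
Level (CPM, each vertical axis from 0) of 12 genes in the 2 libraries each of DMSO and of ATRA at 1, 3 and 6 days; points are libraries and the bar is their mean. SPRY4, ETV4 and FOSL1 are highest at 1 day (SPRY4 2.94 and 2.34 CPM, then 0.414 and 0.686 CPM at 3 days), whereas ETV1 climbs to 297 and 301 CPM at 6 days.

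The plot of these genes over time shows that several were lower at 3 days than at 1 day. SPRY4 had 0.462 and 0.469 CPM with DMSO, 2.94 and 2.34 CPM at 1 day, 0.414 and 0.686 CPM at 3 days and 1.09 and 1.12 CPM at 6 days. The 3-day level against the 1-day level, tested in the same edgeR fit, differed by a log2 fold change of −2.25 ± 0.27 for SPRY4 (FDR 1.43e-08), −4.47 ± 0.33 for ETV4, −2.51 ± 0.18 for ETV5 and −3.69 ± 0.86 for FOSL1. ETV4 had 0.128 and 0.179 CPM at 3 days, under both DMSO libraries. ETV5 had 5.02 and 6.09 CPM at 1 day, 0.861 and 1.07 CPM at 3 days and 8.78 and 10.2 CPM at 6 days, so its 6-day libraries lay above its 1-day libraries. DUSP6 was lower at 3 days by a smaller margin (−0.87 ± 0.21). ETV1 (1.72 ± 0.05), DUSP9 (0.74 ± 0.15) and DUSP16 (0.54 ± 0.04) went the other way. Of the 28 tested feedback genes, 7 were higher and 11 lower at 3 days than at 1 day by FDR alone, beside 16.9% and 17.6% of all genes. The 3-day against 1-day and the 1-day against DMSO comparisons share the 1-day libraries.

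Growth factors and other secreted ligands gave 9 calls among 75 tested genes (12%, beside 2.74% of all genes), 6 higher and 3 lower. ANGPT1, the ligand of the endothelial receptor TIE2, held 137 counts at 1 day and 3 counts with DMSO, a ratio of 44.5 with a 95% counting interval of 14.9 to 218. Its DMSO counts were all in replicate 2, and the fitted log2 fold change of 5.36 was 4.32 without DMSO replicate 1 and 9.01 without DMSO replicate 2. CCBE1, a secreted protein needed to activate the lymphatic growth factor VEGFC, had 7.13 and 8.01 CPM at 1 day and 0.667 and 0.381 CPM with DMSO (3.82 ± 0.16, FDR 6.59e-21). WNT11, a ligand of noncanonical Wnt signaling, had 0.614 and 0.825 CPM at 1 day and 0.128 and 0.0586 CPM with DMSO (2.87 ± 0.42, and 3.54 without DMSO replicate 1). FGF18, a fibroblast growth factor, had 0.827 and 0.825 CPM at 1 day and 0.257 and 0.293 CPM with DMSO (1.58 ± 0.37). 

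ARTN, a ligand that signals through RET, and GDF10, a member of the TGF-beta family, were called from few counts. ARTN held 14 counts at 1 day and 1 count with DMSO, a ratio of 13.6 (95% counting interval 2.08 to 577), and GDF10 held 16 and 3 counts, a ratio of 5.20 (1.49 to 27.8). The call of ARTN was lost without DMSO replicate 1 (2.53) and without ATRA 1-day replicate 2 (3.24), and that of GDF10 without the same libraries (1.80 and 1.61) and with DESeq2 (2.37).

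STC1 (ENSG00000159167.12, chromosome 8, 23841929 to 23854806, minus strand), a secreted glycoprotein hormone of calcium and phosphate balance, fell to 48.8 and 49.7 CPM at 1 day, against 208 and 204 CPM with DMSO, 4.18-fold lower (−2.06 ± 0.03, FDR 7.25e-34). Its level was 20.8 and 20.4 CPM at 3 days and 5.38 and 5.08 CPM at 6 days. WNT5B, a Wnt ligand, fell to 2.29 and 1.97 CPM at 1 day, against 4.51 and 5.13 CPM with DMSO (−1.17 ± 0.17). PDGFD (−1.13 ± 0.34), a platelet-derived growth factor, lost its call without DMSO replicate 1 (−0.85), without ATRA 1-day replicate 1 (−1.09) and without ATRA 1-day replicate 2 (−1.18).

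The pathways that pattern embryos gave a few calls each, in both directions for BMP and TGF-beta, Notch and Wnt genes and in 1 direction for Hedgehog genes. In the BMP and TGF-beta pathway (45 tested, 2 higher, 1 lower), SKIL, a repressor of SMAD proteins that SMADs themselves induce, had 356 and 359 CPM at 1 day, against 156 and 157 CPM with DMSO (1.20 ± 0.02, FDR 1.34e-31). GREM1, a secreted BMP antagonist, fell to 1.74 and 1.12 CPM, against 3.13 and 3.46 CPM with DMSO (−1.20 ± 0.22, and −0.93 with the call lost without ATRA 1-day replicate 2).

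In the Notch pathway (32 tested) the receptor gene NOTCH1 fell to 2.16 and 2.66 CPM, against 7.28 and 8.38 CPM with DMSO (−1.70 ± 0.16, FDR 3.99e-11). MFNG, an enzyme that adds sugars to Notch receptors, fell to 0.961 and 0.931 CPM, against 3.18 and 3.90 CPM with DMSO (−1.90 ± 0.24). HES1, the repressor that Notch switches on, rose to 0.854 and 1.01 CPM, against 0.282 and 0.323 CPM with DMSO (1.62 ± 0.40). The target gene and the receptor gene of this pathway were called in opposite directions.

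Of 39 Wnt receptor, inhibitor and target genes, 3 were called. DKK2, a secreted modulator of Wnt coreceptors, had 1.23 and 1.97 CPM at 1 day and 0.257 and 0.235 CPM with DMSO (2.68 ± 0.31). DACT3, an intracellular antagonist of Wnt signaling, had 14.7 and 14.9 CPM at 1 day and 5.05 and 4.54 CPM with DMSO (1.62 ± 0.08). TCF7L2, a transcription factor of the pathway, was lower (0.347 and 0.266 CPM, against 0.718 and 0.792 CPM with DMSO, −1.29 ± 0.38), a call lost without DMSO replicate 2 (−1.22) and without ATRA 1-day replicate 2 (−1.12). In the Hedgehog pathway (17 tested) GLI3, a factor that mostly represses its targets, had 133 and 138 CPM at 1 day and 66.8 and 67.2 CPM with DMSO (1.02 ± 0.03), a value at the 2-fold limit that was 0.98 without ATRA 1-day replicate 2.

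Axon guidance and chemokine genes were called in small numbers. PLXNA4, a semaphorin receptor subunit, had 7.5 and 6.78 CPM at 1 day and 1.79 and 1.82 CPM with DMSO (1.98 ± 0.11). SLIT2, a secreted repellent, had 38.8 and 43.3 CPM at 1 day and 16.6 and 16.9 CPM with DMSO (1.29 ± 0.06). SEMA3D, a secreted semaphorin, fell to 1.92 and 1.78 CPM, against 5.23 and 5.80 CPM with DMSO (−1.57 ± 0.17). The remaining 57 of the 60 tested guidance genes were not called.

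The chemokine CXCL12 and both of its receptors changed. CXCL12 fell to 3.12 and 3.14 CPM at 1 day, against 7.18 and 6.89 CPM with DMSO (−1.17 ± 0.13). The signaling receptor CXCR4 fell to 0.320 and 0.346 CPM, against 1.49 and 0.968 CPM with DMSO (−1.88 ± 0.36). The scavenger receptor ACKR3, which removes CXCL12, rose to 0.827 and 0.745 CPM, against 0.179 and 0.0880 CPM with DMSO (2.49 ± 0.36, and 3.11 without DMSO replicate 1). NGFR, the low-affinity neurotrophin receptor, was at 2.48 and 1.84 CPM, against 1.03 and 0.850 CPM with DMSO (1.19 ± 0.19, and 0.96 with the call lost without ATRA 1-day replicate 1).

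Transcription factors gave 15 calls higher and 7 lower among 408 tested genes (5.39%, beside 2.74% of all genes, median −0.03). DESeq2 called 12 in all, with no adjusted p for 9 of the 22. SOX9, a factor of neural crest and cartilage, had 17.2 and 17.4 CPM at 1 day, against 2.56 and 2.58 CPM with DMSO (2.74 ± 0.09, FDR 2.01e-23). CASZ1, a zinc finger factor of neuroblastoma differentiation, had 60.03 and 57.5 CPM at 1 day and 15.4 CPM in both DMSO libraries (1.93 ± 0.04). ALX4, a homeobox factor of the skull and limb, had 44.5 and 46.0 CPM at 1 day and 9.13 and 9.998 CPM with DMSO (2.25 ± 0.06). These 3 are from different families.

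NR0B1 (DAX1), an orphan nuclear receptor that represses steroid-forming genes, had 4.08 and 3.73 CPM at 1 day, against 0.667 and 0.762 CPM with DMSO (2.45 ± 0.18). POU3F1, a POU factor of neural and Schwann cell precursors, had 62.1 and 63.1 CPM at 1 day and 19.98 and 18.7 CPM with DMSO (1.69 ± 0.04). SNAI1, a repressor of epithelial genes, had 97.8 and 102 CPM at 1 day and 44.6 and 48.96 CPM with DMSO (1.10 ± 0.04). BHLHE40, a basic helix-loop-helix repressor of the circadian clock, rose by a log2 fold change of 1.33 ± 0.09. LYL1, STAT6 and FOXP3 were called higher from under 1 CPM, at 2.05 ± 0.73, 1.35 ± 0.38 and 1.04 ± 0.38. LYL1 lost its call without any 1 of the 4 libraries (1.48 to 3.17) and with no filter on low counts (FDR 0.055). FOXP3, which lies opposite CCDC22 (11.5 CPM), lost its call without DMSO replicate 1 (0.77) or ATRA 1-day replicate 2 (0.82). It also lost the call, at FDR 0.053 and 0.054, with no filter on low counts and in a fit of the 4 libraries alone. STAT6, which lies opposite LRP1 (169 CPM), lost its call without DMSO replicate 1 (0.995), without ATRA 1-day replicate 2 (1.02) and with DESeq2 (1.35).

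The factors that fell were all at low levels. PAX1, a paired-box factor of the vertebral column, fell to 0.347 and 0.532 CPM at 1 day, against 1.46 and 1.82 CPM with DMSO (−1.89 ± 0.34). MNX1, a homeobox factor of motor neurons, fell to 1.07 and 0.904 CPM, against 2.05 and 2.64 CPM with DMSO (−1.24 ± 0.25). FEZF1, ZIC5, NEUROD6, INSM2 and BHLHA15 were the other 5, each under 1.4 CPM in the 4 libraries. BHLHA15 lies opposite TECPR1 (58.4 CPM) and FEZF1 opposite FEZF1-AS1 (1.96 CPM). Each of these 5 lost its call when 1 library was left out: FEZF1 without ATRA 1-day replicate 2 (−1.71), INSM2 without DMSO replicate 1 (−0.99) or ATRA 1-day replicate 1 (−0.94), ZIC5 without any library other than ATRA 1-day replicate 2 (−1.35 to −1.03), BHLHA15 without any other than DMSO replicate 1 (−1.28 to −1.05), and NEUROD6 without any 1 of the 4 (−1.33 to −1.11).

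Of 24 tested HOX genes, whose ordered activation by retinoic acid is well known in embryos, none was called at 1 day, and 7 were higher and 3 lower by FDR alone, beside 13.1% of all genes higher and 13.3% lower.

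The matrix theme was balanced in direction, with 12 genes higher and 13 lower among 290 tested (8.62%, beside 2.74% of all genes, median −0.04). LAMA5, the alpha-5 chain of basement membrane laminins, had 129 and 128 CPM at 1 day, against 27.3 and 28.4 CPM with DMSO (2.21 ± 0.03, FDR 2.61e-34), and it lies opposite ADRM1 (154 CPM), so its size is uncertain. CCN3, a matricellular signaling protein, had 8.14 and 8.35 CPM at 1 day and 1.67 and 1.94 CPM with DMSO (2.20 ± 0.12). CDH23, an atypical cadherin, had 5.84 and 6.60 CPM at 1 day, against 1.18 and 1.35 CPM with DMSO (2.30 ± 0.12). 

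ADAMTS8, a secreted protease, had 6.46 and 6.60 CPM at 1 day and 1.82 and 1.70 CPM with DMSO (1.89 ± 0.13). PLAT, the tissue plasminogen activator, had 0.480 and 0.372 CPM at 1 day and 0.0769 and 0.0293 CPM with DMSO (2.88 ± 0.68, and 3.70 without DMSO replicate 1). SPOCK1, a proteoglycan first found in testis, had 10.1 and 10.7 CPM at 1 day and 4.64 and 4.37 CPM with DMSO (1.21 ± 0.09). LOXL4, an enzyme that crosslinks collagen, was at 5.50 and 6.94 CPM, against 2.87 and 2.73 CPM with DMSO (1.15 ± 0.11), a call lost without ATRA 1-day replicate 2 (0.97). The other 5 called higher were TLL1 (1.55 ± 0.21), a protease of the BMP1 family, ADAMTSL4 (1.61 ± 0.39, opposite MCL1 at 218 CPM), the secreted phosphoprotein gene SPP1 (2.01 ± 0.43), IGFBP6 (1.35 ± 0.49), which binds insulin-like growth factors, and the cadherin gene CDH12 (1.11 ± 0.23). The calls of SPP1 without DMSO replicate 1 (1.34), of CDH12 without ATRA 1-day replicate 2 (0.99) and of IGFBP6 without any 1 of the 4 libraries (1.25 to 1.47) were lost. IGFBP6 also lost its call with no filter on low counts (FDR 0.0598).

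The fibrillar collagen genes COL1A1 and COL3A1 were called lower. COL1A1 fell to 4.51 and 4.603 CPM at 1 day, against 16.9 and 16.7 CPM with DMSO (−1.88 ± 0.09, FDR 1.33e-18). COL3A1 fell to 2.64 and 2.55 CPM, against 10.4 and 10.8 CPM with DMSO (−2.03 ± 0.12). Of 32 tested collagen genes the third call was COL6A6 (−1.65 ± 0.34), and their median was −0.09. By FDR alone 6 were higher and 12 lower, beside 13.1% and 13.3% of all genes.

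Of 7 tested fibroblast and mesenchymal markers 2 were called, both lower: ACTA2, smooth muscle actin, to 1.44 and 1.304 CPM, against 4.82 and 4.11 CPM with DMSO (−1.70 ± 0.18), and TAGLN, which lies opposite PCSK7 (85.3 CPM), to 5.10 and 5.40 CPM, against 11.1 and 10.4 CPM with DMSO (−1.04 ± 0.10). The TAGLN call was lost without DMSO replicate 1 (−0.99) and without ATRA 1-day replicate 1 (−0.996). THY1 and PDGFRB were lower by FDR alone (−0.14 ± 0.03 and −0.30 ± 0.06), and PDGFRA, LUM and DCN did not pass, with DCN at 0.83 ± 0.38. In bulk libraries fewer cells of a kind and less RNA per cell cannot be told apart.

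Other matrix genes that fell were proteases, glycoproteins and adhesion genes. ADAMTS5, a protease that cuts the proteoglycan aggrecan, fell to 37.6 CPM in both libraries of ATRA 1 day, against 96.7 and 96.3 CPM with DMSO (−1.36 ± 0.04, FDR 5.95e-25). CDH15, the muscle cadherin, fell to 1.07 and 1.28 CPM, against 4.74 and 4.16 CPM with DMSO (−1.92 ± 0.20). TGFBI, a TGF-beta-induced adhesion protein, fell to 0.374 and 0.505 CPM, against 1.41 and 1.23 CPM with DMSO (−1.58 ± 0.35). THBS1, thrombospondin, was at 2.96 and 3.99 CPM, against 7.39 and 6.98 CPM with DMSO (−1.05 ± 0.14, and −0.85 with the call lost without ATRA 1-day replicate 1).

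The heparan sulfate enzyme gene HS3ST4 (−1.28 ± 0.18) and the collagen-binding integrin gene ITGA11 (−1.25 ± 0.22) fell as well. The elastic fiber genes FBN1 (−1.03 ± 0.16) and FBLN5 (−1.29 ± 0.35) and the proteoglycan genes BCAN (−1.12 ± 0.27) and PODN (−1.10 ± 0.26) completed the calls lower. Their calls were lost when 1 library was left out: FBN1 without DMSO replicate 2 (−0.98) or ATRA 1-day replicate 2 (−0.89), FBLN5 without DMSO replicate 1 (−1.09), BCAN without ATRA 1-day replicate 2 (−0.82), and PODN without DMSO replicate 2 (−0.94) or ATRA 1-day replicate 1 (−0.87).

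Lipid genes gave the fewest calls, 6 higher and 6 lower of 303 tested (3.96%, near the 2.74% of all genes, median −0.01). DESeq2 called 7, with no adjusted p for 4 of the 12. Yet in 1 pathway of the theme nearly every gene was lower, each by less than 2-fold. All 22 cholesterol synthesis enzymes were tested and none was called, while by FDR alone 20 were lower and none higher, beside 13.3% of all genes lower. Their median log2 fold change was −0.40. The exceptions were GGPS1 (−0.11) and EBP (−0.14).

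HMGCS1, an early enzyme of the pathway, had 87.1 and 86.5 CPM at 1 day and 161 and 160 CPM with DMSO (−0.89 ± 0.03, FDR 7.26e-25). FDFT1, squalene synthase, had 77.1 and 75.0 CPM at 1 day and 133 CPM in both DMSO libraries (−0.81 ± 0.03). MSMO1, a later sterol oxidase, had 39.7 and 40.4 CPM at 1 day and 71.5 and 75.0 CPM with DMSO (−0.87 ± 0.04). These 3 genes are among the enzymes with the largest differences, so the separation of their groups adds no support. The late enzymes DHCR7 (−0.18 ± 0.03), SC5D (−0.25 ± 0.04) and CYP51A1 (−0.13 ± 0.03) were lower by less, and so was the early enzyme ACAT2 (−0.35 ± 0.05). CYP51A1 lies opposite AKAP9 (180 CPM) and ACAT2 opposite TCP1 (172 CPM), so the sizes of these 2 are uncertain.

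INSIG1 (ENSG00000186480.13, chromosome 7, 155297776 to 155310235, plus strand) encodes the membrane protein that holds the sterol sensor SCAP in the endoplasmic reticulum, and its own gene is a target of the sterol factor SREBP2. It fell to 33.0 and 32.7 CPM, against 75.4 and 75.0 CPM with DMSO (−1.19 ± 0.04, FDR 1.02e-23). The sterol carrier gene STARD4 had 65.0 and 68.8 CPM at 1 day and 106 CPM in both DMSO libraries (−0.66 ± 0.03). SREBF2, which encodes SREBP2, was at −0.32 ± 0.02.

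The uptake gene LRP1, a large endocytic receptor of lipoproteins and proteases, went the other way. It had 235 and 245 CPM at 1 day, against 95.7 and 99.5 CPM with DMSO (1.3 ± 0.03, FDR 1.05e-28). Of the 45 tested sterol sensing and uptake genes LRP1 and INSIG1 were the calls, and the list's median was −0.0061. Of 31 fatty acid synthesis genes, which the related factor SREBP1 serves, none was called (median −0.08). By FDR alone 12 were lower and 2 higher, beside 13.3% and 13.1% of all genes. Among the lower ones SCD, the stearoyl-CoA desaturase, was at −0.44, FADS2, a fatty acid desaturase, at −0.50 and FASN, the fatty acid synthase, at −0.32.

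**Figure D5:**
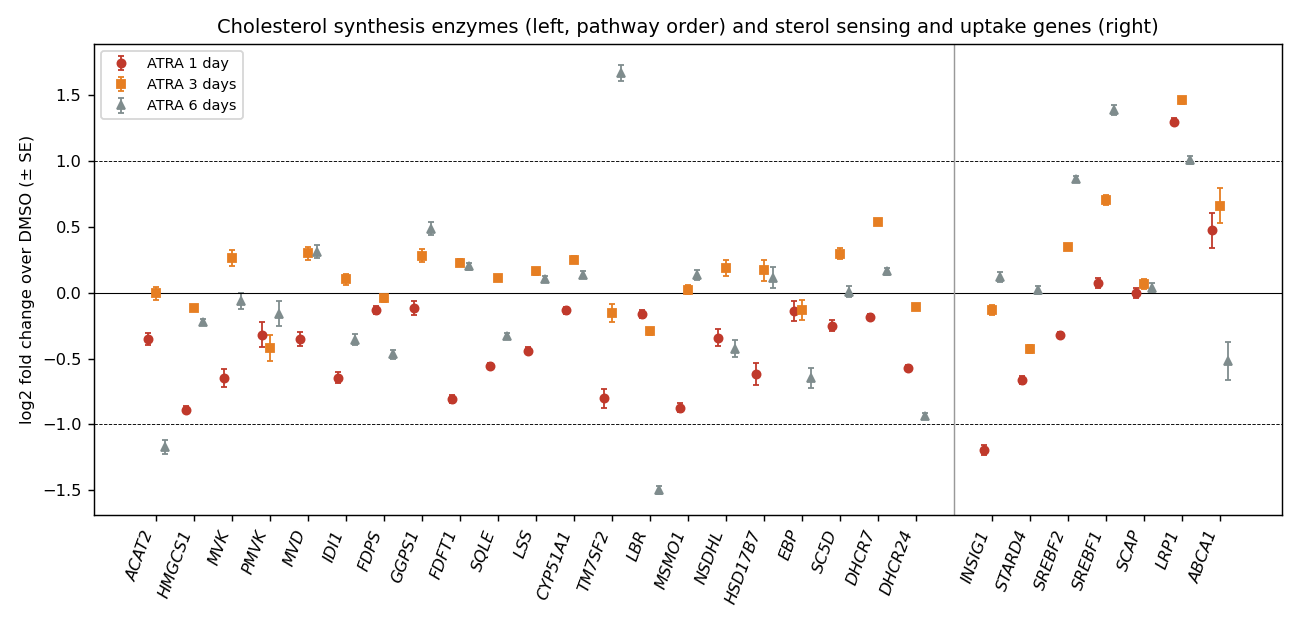
Log2 fold change over DMSO (± SE, 2 libraries per group) of 21 of the 22 cholesterol synthesis enzymes in pathway order and of 7 sterol sensing and uptake genes, at 1 day (red circles), 3 days (orange squares) and 6 days (grey triangles) of ATRA; dashed lines mark 2-fold. At 1 day 20 of all 22 enzymes were lower by FDR, with a median of −0.40, and at 3 days their median was 0.11.

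The plot of the pathway over time shows levels at 3 days above those at 1 day in most of these enzymes. Against DMSO their median log2 fold change was −0.40 at 1 day, 0.11 at 3 days and −0.11 at 6 days. HMGCS1 had 161 and 160 CPM with DMSO, 87.1 and 86.5 CPM at 1 day, 148 and 149 CPM at 3 days and 136 and 139 CPM at 6 days. Tested as 3 days against 1 day, 19 of the 22 enzymes were higher by FDR and 1 lower, beside 16.9% and 17.6% of all genes, with a log2 fold change of 0.77 ± 0.03 for HMGCS1. INSIG1 was higher at 3 days by 1.06 ± 0.04. These comparisons share the 1-day libraries with the fall itself. The later libraries may hold a changed mix of cells here too, given the cell death that the study reports.

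Promoters of sterol genes are shown because the enzymes moved together, and because SREBP2 acts beside the factor NF-Y, which reads the CCAAT box. Letters searched on both strands were CCAAT, the sterol element core TCACNCCA and the E-box TCACGTGA, which reads the same on both strands. All stretches are from RefSeq windows (GRCh38.p14) in the direction of the gene, and capitals mark the matches, with ATTGG for a box on the other strand. INSIG1 is given at chr7:155297696-155297724 and chr7:155297811-155297840 (plus strand), HMGCS1 at chr5:43313551-43313579 (minus strand), MVK, the mevalonate kinase, at chr12:109573581-109573764 (plus strand) and MSMO1 at chr4:165327472-165327651 (plus strand).
INSIG1 upstream: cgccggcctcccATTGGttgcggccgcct
INSIG1 E-box: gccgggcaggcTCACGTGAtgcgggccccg
HMGCS1: agtttccttttgATTGGtagaagccggac
MVK: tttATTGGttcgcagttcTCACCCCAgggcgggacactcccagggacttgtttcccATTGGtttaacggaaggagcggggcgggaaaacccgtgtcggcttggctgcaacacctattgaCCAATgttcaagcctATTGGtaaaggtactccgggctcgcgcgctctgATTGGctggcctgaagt
MSMO1: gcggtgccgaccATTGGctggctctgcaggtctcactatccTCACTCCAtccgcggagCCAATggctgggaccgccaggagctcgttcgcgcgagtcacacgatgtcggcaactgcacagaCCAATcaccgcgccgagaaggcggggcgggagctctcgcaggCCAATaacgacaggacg
MVK held 5 CCAAT boxes and MSMO1 held 4, each with 1 sterol element core. Over the 27305 genes with a window, 39.7% held a CCAAT box, 4.8% a sterol element core and 1.18% the E-box. A window was found for 17 of the 22 enzymes, too few for a share over the list. MVK and MSMO1 are the 2 of these 17 with a sterol element core. CYP51A1, LBR and PMVK held no CCAAT box, and the other 14 held at least 1. MVK itself had 14.3 and 13.3 CPM at 1 day and 21.0 and 22.2 CPM with DMSO (−0.65 ± 0.06), and it lies opposite MMAB (19.3 CPM).

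The remaining lipid calls were scattered over lipases and lipid transport. PLCL1, a phospholipase C-like protein that binds inositol phosphates, had 3.23 and 2.77 CPM at 1 day and 0.590 and 0.733 CPM with DMSO (2.18 ± 0.18). MGLL, which breaks down monoglycerides including the endocannabinoid 2-arachidonoylglycerol, had 4.64 and 4.23 CPM at 1 day and 1.72 and 1.99 CPM with DMSO (1.26 ± 0.13). LIPG, endothelial lipase, fell to 0.347 and 0.319 CPM, against 0.949 and 0.792 CPM with DMSO (−1.38 ± 0.39, and −1.24 with the call lost without DMSO replicate 1), and PLD5, a phospholipase D family member, fell by a log2 fold change of 1.27. None of 34 fatty acid oxidation genes was called.

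The other lipid calls were PLD4 (1.78 ± 0.29, opposite AHNAK2 at 18.8 CPM), the fatty acid transport gene SLC27A6 (1.31 ± 0.36, opposite FBN2 at 101 CPM) and the acyltransferase gene GPAT2 (1.25 ± 0.47) higher, and the lipid droplet gene PLIN4 (−1.15 ± 0.30, opposite HDGFL2 at 63.7 CPM), the phospholipase C gene PLCH2 (−1.09 ± 0.16) and SPTSSB (−1.17 ± 0.36), a subunit of the first enzyme of sphingolipid synthesis, lower. GPAT2 lost its call without any 1 of the 4 libraries (0.89 to 1.66) and with the replicate block (1.25). It also lost the call with no filter on low counts (FDR 0.052) and in a fit of the 4 libraries alone (FDR 0.0505). Calls were also lost by SLC27A6 without ATRA 1-day replicate 2 (1.14) and with DESeq2 (1.31), by PLCH2 without DMSO replicate 2 (−0.99), and by SPTSSB without any library other than DMSO replicate 2 (−1.22 to −0.95).

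The 1-day genes were also read in the RA tumors, which share no library with the cells and were counted in a separate table. The study dosed the mice on a schedule of weeks, so the tumors differ from the 1-day cells in drug form and time of exposure. Of the 276 genes higher at 1 day that were tested in tumors, 20 were called higher in RA tumors (7.25%, beside 0.246% of all genes tested there), which is 38.5% of the genes called higher in tumors. Among the genes lower at 1 day and tested in tumors, AGBL1 alone was called lower in RA tumors (0.746%, beside 0.0379% of all genes), which is 12.5% of those called lower in tumors. In both directions together, 0.284% of the genes tested in tumors were called. The median log2 fold change in tumors was 0.31 for the genes higher at 1 day, −0.10 for those lower and −0.0081 over all genes. Leaving out 1 tumor gave 14 to 27 such genes in place of 21. With the replicate number as a block, which no label says to be shared between tumors, 5 genes were called in both.

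SOX9 had 9.65, 8.77, 6.26 and 4.39 CPM in RA tumors, against 1.14, 2.50, 1.46, 2.28 and 1.33 CPM in control tumors (2.04 ± 0.27, FDR 0.00397). RARB had 8.16, 10.3, 7.25 and 8.84 CPM in RA tumors, against 4.17, 4.01, 4.10, 3.03 and 3.65 CPM in control tumors (1.19 ± 0.15). The tumor groups did not overlap in 20 of the 21 genes called in both, SOX9 and RARB included. These genes were called in the same tumors, so the separation adds no support, and its share over all genes was not counted. Members of the 4 themes among them were SOX9, the matrix genes LOXL4 (2.10 ± 0.24) and SPOCK1 (1.29 ± 0.19), the lipid gene PLCL1 (1.62 ± 0.21) and the signaling genes PLPPR1 (1.19 ± 0.21) and NGFR (1.63 ± 0.25). A step that removes reads of mouse cells from the tumor libraries is not given in the sources used here.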

How the data were processed

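RNA-seq libraries of CHP-134 cells (ribosomal RNA removed, strand-marking kits per the labels) were processed by the authors against hg38 with Trim Galore 0.4.4 for trimming, STAR 2.7.10a for alignment and RSEM 1.3.3 for quantification, according to the submitters' processing notes. The deposited values are expected counts per gene, not normalized; 7.56% of those in cells are not whole. The annotation release and strand setting are not given in the sources used here. The 92 spike-in entries were all at 0 in cells and were left out. The headers of all culture columns, those of ATRA-treated cells included, carry "Ctrl"; columns were matched to samples by day and replicate number, and groups follow the labels.

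Expected counts were rounded. Genes were filtered with filterByExpr (minimum count 10), scaled by TMM and tested with edgeR 4.0.16 (R 4.3.3; quasi-likelihood, robust), with 1 mean per group over the 8 culture libraries (4 residual degrees of freedom) and, separately, over the 9 tumor libraries (21098 genes). Standard errors (SE) were derived from the F statistics. CPM are TMM-scaled. On simulated counts for the 1-day comparison (20237 genes), 100% of 100 genes changed 3-fold were called, and 83% of 100 genes changed 1.5-fold passed the FDR. The changed genes were drawn from those with a mean over 1 CPM, with a spread set by level alone. These shares do not cover genes of lower level. GENCODE 44 positions matched 60261 of 60662 identifiers, and promoter windows came from RefSeq.

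The members, gene lists and tests were chosen with earlier results of these data known. Genes named are the 15 protein-coding genes with the largest change each way among those called with at least 1 CPM in the higher group, up to 6 called members each way of every list, the cholesterol synthesis and sterol sensing genes, and RARB, CRABP2, STRA6 and RET; some genes that the rule names are not reported here. Alternatives were other scalings (DESeq2 size factors, total counts), no filter, DESeq2 1.42.0, the 4 libraries alone, a replicate block, unrounded counts and leaving out each library in turn. No label says that replicate numbers pair the cultures, and deviations of same-numbered culture libraries correlated between −0.025 and 0.012. This check ran over all tested genes, many with few counts, so it cannot exclude a weak pairing. The tumors were not checked in this way.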

Additional observations from a re-analysis of the deposited data

Results flagged for a closer look

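Several genes had a 3-day level that differed from the 1-day level in a direct test, after a rise or fall at 1 day. The log2 fold change of 3 days over 1 day was 0.771 for HMGCS1, 0.669 for SQLE, 1.06 for INSIG1 and 0.234 for STARD4, and 19 of the 22 cholesterol synthesis enzymes were higher at 3 days. It was −2.25 for SPRY4, −0.869 for DUSP6, −3.69 for FOSL1, −4.47 for ETV4 and −2.51 for ETV5. In contrast, ETV1 (1.72), DUSP9 (0.739) and DUSP16 (0.544) were higher at 3 days. All of these passed an FDR of 0.05 in edgeR's quasi-likelihood test with 2 libraries per group.

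Among the 21 genes called in both cells and tumors, a single tumor stood apart from its group in 3 of 42 groups examined, and chance alone would mark about 1 group in 20. In NGFR the highest RA tumor had 16.03 CPM and its gap to the next was 0.966 of the group's range. In AGBL1 the lowest RA tumor was separated by 0.918 of the range, and in LOXL4 the highest control tumor by 0.733 of the range. What set these tumors apart was not tested.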

How the results depend on the processing

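Every count kept within 1.5 times its value under the alternatives other than DESeq2's Wald test and, for tumors, the replicate block. A similar total does not mean that the same genes were called. With the 4 libraries of DMSO and ATRA 1 day alone, 316 of the 394 genes higher and 152 of the 160 lower were called again. Without any 1 of these 4 libraries, some of the 394 and of the 160 lost their calls while other genes gained them. The totals given below for leaving out 1 library therefore overstate how far the gene sets were kept. DESeq2 called 228 genes higher and 80 lower, 12 transcription factors and 7 lipid genes, and gave no adjusted p to 3924 of the 20237 genes; the cause of its other lost calls was not tested. With the replicate number as a block, which no label says to be shared between groups, the cells gave 385 higher and 158 lower. In that setting 5 genes were called in both cells and tumors, in place of 21. Leaving out 1 library gave 330 to 393 genes higher, 148 to 174 lower, 39 to 46 signaling, 18 to 21 transcription factor, 22 to 25 matrix and 10 to 12 lipid genes, 6 to 7 MAP kinase feedback genes, 19 to 21 cholesterol enzymes lower and 14 to 27 genes called in both cells and tumors. Of 124 named genes that were called, 35 lost the call in at least 1 alternative, and none of the 124 changed sign. A gene that an alternative did not test, or to which DESeq2 gave no adjusted p, was not counted as losing its call there. The 35 therefore leave out such genes. Of uncalled genes, 6 changed sign: with total counts SCAP was at 0.0056, OSBPL9 at 0.0050, OSBPL11 at 0.0021 and INSIG2 at 0.0019, and without 1 library NPC1L1 ranged between −0.13 and 0.57, LRP8 between −0.018 and 0.048, OSBPL9 between −0.051 and 0.040, OSBPL11 between −0.092 and 0.088 and INSIG2 between −0.094 and 0.092. At these depths genes under 1 CPM rest on few counts, and their folds are the least certain.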

Other observations

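Outside the 4 themes, the genes given here were chosen after their values were seen. Among muscle-type acetylcholine receptor subunits, CHRND had 2.43 and 2.47 CPM at 1 day and 5.18 and 5.37 CPM with DMSO (−1.10 ± 0.14), CHRNA1 had 1.87 and 1.22 CPM at 1 day and 3.33 and 3.05 CPM with DMSO (−1.05 ± 0.19), and CHRNB1 was not called (−0.23 ± 0.18). The ganglionic subunit gene CHRNA3 had 539 and 535 CPM at 1 day and 301 and 298 CPM with DMSO (0.84 ± 0.02), under the 2-fold limit. The neighbouring lipid transporter genes ABCA6 (1.84 ± 0.20), ABCA9 (1.504 ± 0.26) and ABCA10 (1.34 ± 0.11) were called higher, whereas ABCA12, which exports lipid in skin, had 21.2 and 21.4 CPM at 1 day and 53.7 and 53.2 CPM with DMSO (−1.33 ± 0.05).

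The secretory granule gene SCG2 had 317 and 313 CPM at 1 day and 117 and 111 CPM with DMSO (1.46 ± 0.02). SAMD9L, an interferon-induced gene, was called higher (3.21 ± 0.19) and USP18, which removes the interferon-induced modifier ISG15, lower (−2.28 ± 0.28). Of the genes called, 103 of 394 higher and 25 of 160 lower were long noncoding RNAs, beside 3569 of the 20237 genes tested. LINC01587 held 426 counts at 1 day and none with DMSO, at least 138-fold higher against a floor of 3 counts over the group.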
